A study of Mus musculus with 2 samples.

Results

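Imprinted growth genes were followed in mouse blood stem cells: Igf2, H19, Cdkn1c, Grb10, Peg3, Ndn, Plagl1, Gnas and Meg3. These 9 genes were listed by name and selected on levels and divisions of these same cells that were already known, and 8 of them had a row among the 28205 features counted beside the reporter. H19 had no row under that name and was not analysed here. Imprinted genes are read mainly from the copy of one parent, because DNA methylation laid down in the germ line marks the parental copies differently. Many of them act on growth, and several are known for high expression in long-term hematopoietic stem cells (LT-HSCs), where p57, the product of Cdkn1c, holds back cell division. The counts used here do not tell the parental copies apart.

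The cells came from lineage-depleted bone marrow (depleted with antibodies to B220, Gr1, Ter119, CD4 and CD8) and were run on the inDrops droplet platform, which tags every captured transcript with a cell barcode and a unique molecular identifier (UMI). Part of the pool was sorted only as DAPI-GFP+ from Mds1-GFP/+ Flt3-Cre mice, whose GFP cassette (loxP-IRES-GFP-polyA-loxP) is removed by Cre wherever the Flt3 promoter has been active. The larger part was wild-type LT-HSCs sorted as DAPI-Lin-cKit+Sca+CD48-CD150+. The pool was read as 2 aliquots, so there was 1 biological sample, the aliquots were technical, and no test between conditions was possible. Ages and the number of mice are not given in the sources used here.

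Cells were barcodes holding 500 UMIs or more, with no more than 20% of them mitochondrial, giving 1574 cells with a median of 946.5 UMIs in aliquot 1 and 1828 cells with a median of 2071.5 UMIs in aliquot 2. All 16 genes of an LT-HSC marker list were found, at 3313 CPM together (CPM, counts scaled to a total of 1000000 UMIs). A granulocyte marker list reached 2355 CPM, so the pool was not pure. Marrow stroma markers summed to 36.2 CPM and endothelial markers to 109.9 CPM. Of the kept barcode names, 55 occurred in both aliquots.

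In build GRCm38, Igf2 occupies 142650766 to 142666816 of chromosome 7 (minus strand), and Cdkn1c lies 791.5 kb away at 143458339 to 143461050 on the same strand. Ndn (62346569 to 62350262, plus strand) and Peg3 (6703892 to 6730431, minus strand) are also on chromosome 7. Grb10 is on chromosome 11 (11930508 to 12038683, minus strand), Gnas on chromosome 2 (174284320 to 174346744, plus strand), Plagl1 on chromosome 10 (13060504 to 13131694, plus strand) and Meg3, a long noncoding RNA, on chromosome 12 (109541001 to 109571726, plus strand). Gnas has 24 annotated transcripts and several overlapping genes, and Igf2 overlaps an antisense gene, so reads of overlapping or alternative transcripts cannot be assigned further from one count per gene.

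Promoter windows were found in RefSeq (GRCm38.p6) for 7 of the members, with none for Cdkn1c. The 4 Igf2 windows hold 1, 6, 10 and 22 CG, the dinucleotide at which DNA is methylated, and the richest number is reached by 14.8% of all windows. A pair that lies outside the annotated exons of Igf2 is printed to show how the starts of this gene differ. Each holds the 250 bases before a start, read 5′ to 3′ on the minus strand, with every CG in capitals.

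Igf2, chr7:142657497-142657746: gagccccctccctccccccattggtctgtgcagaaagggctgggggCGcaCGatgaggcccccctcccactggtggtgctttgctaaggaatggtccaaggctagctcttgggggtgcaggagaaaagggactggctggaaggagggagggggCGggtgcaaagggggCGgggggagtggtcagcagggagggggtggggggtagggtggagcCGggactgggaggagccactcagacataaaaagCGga

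Igf2, chr7:142666817-142667066: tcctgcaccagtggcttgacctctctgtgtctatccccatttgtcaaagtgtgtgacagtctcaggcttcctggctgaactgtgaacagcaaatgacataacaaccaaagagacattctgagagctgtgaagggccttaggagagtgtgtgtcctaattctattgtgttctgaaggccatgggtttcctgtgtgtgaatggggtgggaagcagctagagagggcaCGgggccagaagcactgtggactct

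The first window holds 6 CG, a number reached by 50.4% of 32851 windows of the same length, and the outermost holds 1, reached by 92.1%. Because the counts are 1 value per gene, they do not show which of these starts was used.

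Gnas, which encodes the stimulatory G protein alpha subunit, stood far above the other members. It gave 1084 CPM in aliquot 1 and 959 CPM in aliquot 2, from 5639 UMIs in 2321 of 3402 cells (68.2%, exact interval 66.6% to 69.8%). By UMIs it ranked 121 of 22476 detected features. Intervals are 95%, exact, and cover counting error only.

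Grb10, an adaptor that damps insulin and IGF receptor signalling, came next, with 125 CPM in aliquot 1 and 109.5 CPM in aliquot 2 from 449 cells (13.2%). Ndn, which encodes necdin, a growth suppressor of postmitotic cells, gave 72.5 CPM and 64.6 CPM from 266 cells (7.82%). Cdkn1c, the CDK inhibitor p57, gave 63.4 CPM and 51.6 CPM from 211 cells (6.20%). The intervals of Ndn and Cdkn1c overlapped over both aliquots (66.9 CPM, 60.3 to 73.9, against 55.0 CPM, 49.1 to 61.5), while the steps from Gnas to Grb10 and from Grb10 to Ndn were wider than theirs.

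Igf2, a fetal growth factor, was low but present, at 15.8 CPM in aliquot 1 and 15.6 CPM in aliquot 2. Its 89 UMIs lay in 71 cells (2.09%, 1.63% to 2.63%). Meg3 had 21 UMIs in 19 cells, Peg3, a zinc finger protein gene, 11 UMIs in 10 cells, and Plagl1, a zinc finger growth regulator, 9 UMIs in 9 cells. Plagl1 had no UMI in aliquot 1, where the upper bound of its level was 2.25 CPM. The intervals of these last 3 genes overlap, so their order is not shown.

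**Figure D1:**
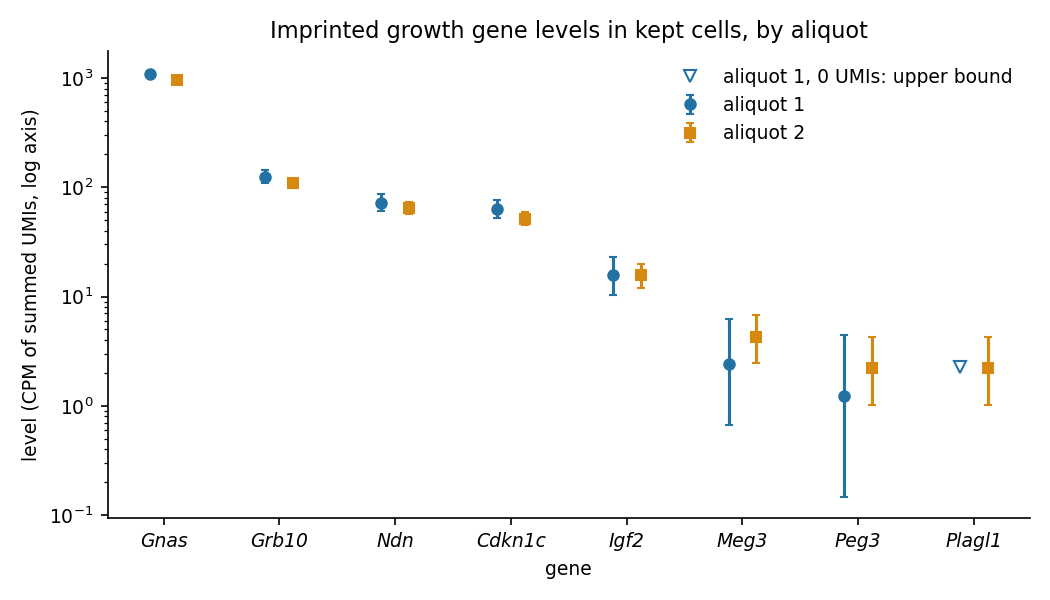
Level of each of the 8 counted genes (CPM of summed UMIs, log axis) in aliquot 1 (circles) and aliquot 2 (squares), with exact Poisson intervals; the open triangle is the upper bound where no UMI was counted. Gnas lies at 1084 and 959 CPM, and the other genes lie between 125 CPM (Grb10) and 1.22 CPM (Peg3) where any UMI was counted.

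Igf2, Cdkn1c, Grb10 and Ndn were found in fewer cells than an even spread would give. With each member's UMIs spread over cells in proportion to depth, Cdkn1c would be found in 294 cells, and it was found in 211. For Grb10 the numbers were 571 and 449 cells, for Ndn 352 and 266, and for Igf2 87.4 and 71. Cells with 2 or more UMIs were correspondingly more common than that spread gives, at 60 against 17.4 for Cdkn1c, 118 against 67.1 for Grb10, 76 against 25.2 for Ndn and 13 against 1.53 for Igf2. Gnas differed less, with 2321 cells against 2499.9, and Peg3 (10 against 10.98), Plagl1 (9 against 8.98) and Meg3 (19 against 20.9) lay near that spread.

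Levels of 4 members were lower in the deepest cells than in the shallowest or middle ones. In the shallowest quartile of aliquot 2 Cdkn1c stood at 80.9 CPM (57.5 to 110.5) and in the deepest at 33.0 CPM (24.8 to 43.0), and in aliquot 1 the same quartiles gave 98.6 CPM and 34.8 CPM. Grb10 went from 154 to 85.4 CPM in aliquot 1 and from 145 to 91.6 CPM in aliquot 2. Ndn went from 118 to 60.1 CPM and from 85.0 to 38.5 CPM. Igf2 was highest in the middle quartiles and lowest in the deepest, at 3.16 CPM in aliquot 1 and 7.33 CPM in aliquot 2. Gnas rose instead in aliquot 2, from 842 to 1038 CPM. Depth therefore moves with the level of these genes, and its part in the differences below was not tested beyond the values given there.

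**Figure D2:**
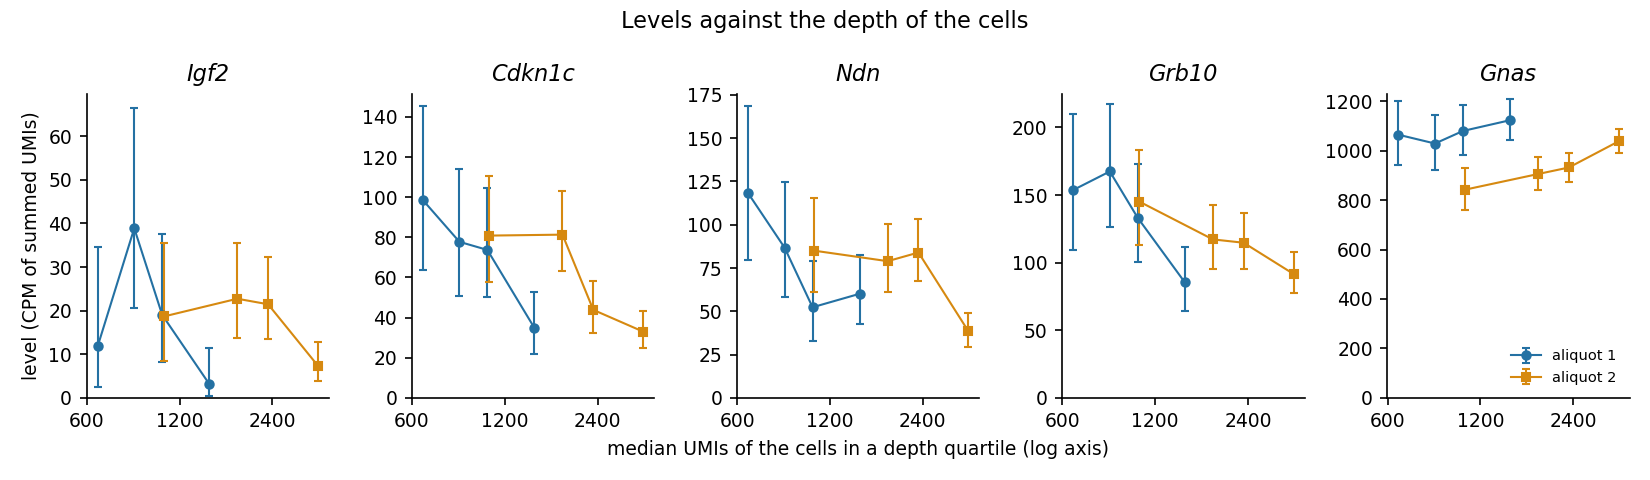
Level (CPM of summed UMIs) of 5 members in each depth quartile of each aliquot, against the median UMIs of its cells (log axis), with exact Poisson intervals. Cdkn1c, Grb10, Ndn and Igf2 are lowest or near lowest in the deepest quartile, while Gnas in aliquot 2 is highest there at 1038 CPM.

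Free RNA was read from barcodes with under 200 UMIs, 6291 in aliquot 2 and 201 in aliquot 1. In aliquot 2 the intervals of these 5 levels held the level of the kept cells, with 892 CPM for Gnas, 98.9 CPM for Grb10, 68.5 CPM for Ndn, 45.7 CPM for Cdkn1c and 11.4 CPM for Igf2. In aliquot 1 Gnas was lower there, at 495 CPM (277 to 816) against 1084 CPM in kept cells, and the other members had 0 to 3 UMIs each. In 34 granulocyte-marker cells (at least 5 marker UMIs among 500, median depth 2192 UMIs against 1411.5 in the other cells) Cdkn1c and Grb10 were in 0 cells, which allows a share of up to 8.82% by 3 counts, Igf2 was in 1 cell, Ndn in 2 and Gnas in 29 (85.3%). The share of Igf2 was 2.94% of those cells (0.0744% to 15.3%) against 2.08% elsewhere, so at this number of cells the Igf2 share was not above that background. The Gnas share was not above it either, at 68.1% elsewhere in cells of lower depth. With cells thinned at random to 500 UMIs, the Gnas share was 37.8% elsewhere and 32.4% (17.4% to 50.5%) in the granulocyte-marker cells. By level Gnas was at 997 CPM elsewhere and 852 CPM (670 to 1067) in those cells.

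Cells were next divided by what they expressed. To give each cell the same chance of a marker UMI, all cells were thinned at random to 500 UMIs before the division, and levels were then taken from all UMIs. The thinning decides which cells carry a marker, so the ratios of the members are followed by their range over 20 other random draws, and the ratios of other genes are those of the main draw alone. A gene was counted as past the fold at a ratio of at least 1.5, or at most the inverse, where the smaller set had 10 or more UMIs, counted or expected. These divisions are the ones for which the genes were listed, so their values are descriptions.

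Cells with a Procr UMI held more Igf2 and Cdkn1c. Procr encodes EPCR, a surface marker of LT-HSCs, and 254 cells had a UMI of it after thinning (median depth 1260 UMIs) against 3148 without (1428 UMIs). Igf2 stood at 38.0 CPM against 14.3 CPM in aliquot 1 and at 61.2 CPM against 12.5 CPM in aliquot 2. The ratio over both was 4.19 (2.41 to 6.98), and the other draws gave 2.86 to 6.30 with a median of 3.89. Igf2 was thus above the fold in 20 of 20 other draws, although only 20 UMIs in 16 cells carry it.

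Cdkn1c gave 133 against 58.6 CPM in aliquot 1 and 88.0 against 49.1 CPM in aliquot 2. Its ratio was 1.94 (1.34 to 2.75), with 1.56 to 2.89 and a median of 2.29 in the other draws. Ndn was 94.99 against 71.0 CPM and 88.0 against 62.9 CPM, a ratio of 1.38 (0.934 to 1.97) that passed the fold in 12 of the other 20 draws (1.17 to 1.86, median 1.55). Grb10 gave 1.13 (0.824 to 1.53; other draws 1.09 to 1.64) and passed in 3 of 20 draws. Gnas gave 0.945 (0.845 to 1.05; other draws 0.905 to 1.14).

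Of 5 members measured here, 2 were past 1.5-fold upward and 0 downward, where 12.7% of 7016 features were upward and 13.1% downward. Igf2 was measured here through its 20 counted UMIs, since under 10 were expected. It could therefore be counted only when high, so its place among the 2 was set by the minimum. The median log2 ratio of the members was 0.46 and that of all measured features 0.03. Without aliquot 2, 1 of 4 measured members remained past the fold, because Igf2 then had too few UMIs to count. The summed LT-HSC markers, Procr among them, were 5494 CPM in cells with Procr and 3163 CPM without, the granulocyte list was 365 against 2492 CPM, and the stroma list was 32.7 against 36.4 CPM. The part of these lists in the ratios was not tested.

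Cd34, a surface glycoprotein low on LT-HSCs and higher on progenitors, marked 432 cells (median depth 1363 UMIs) against 2970 (1430 UMIs). Igf2 was the lower member, at 8.87 against 17.0 CPM in aliquot 1 and 4.23 against 17.2 CPM in aliquot 2. This rests on 4 UMIs where 10.97 were expected, a ratio of 0.335 (0.0891 to 0.889), and the other draws ran from 0.0932 to 0.876 with a median of 0.498, all below 1. Ndn gave 66.5 against 73.5 CPM in aliquot 1 and 35.9 against 68.4 CPM in aliquot 2, a ratio of 0.656 (0.442 to 0.943), but the other draws had a median of 0.877 and reached 1.08.

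Cdkn1c had no steady direction with Cd34, at 44.3 against 66.4 CPM in aliquot 1 and 67.6 against 49.5 CPM in aliquot 2, and the other draws ran from 0.576 to 1.22. Grb10 was 0.892 (0.688 to 1.14; other draws 0.5005 to 0.991) and Gnas 0.957 (0.882 to 1.04; other draws 0.863 to 1.06). Of 5 measured members, 0 were past the fold upward and 2 downward, against 6.43% and 7.48% of 8972 features. The number downward was 0 without aliquot 2, 1 without aliquot 1, and between 0 and 2 over the other draws.

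**Figure D3:**
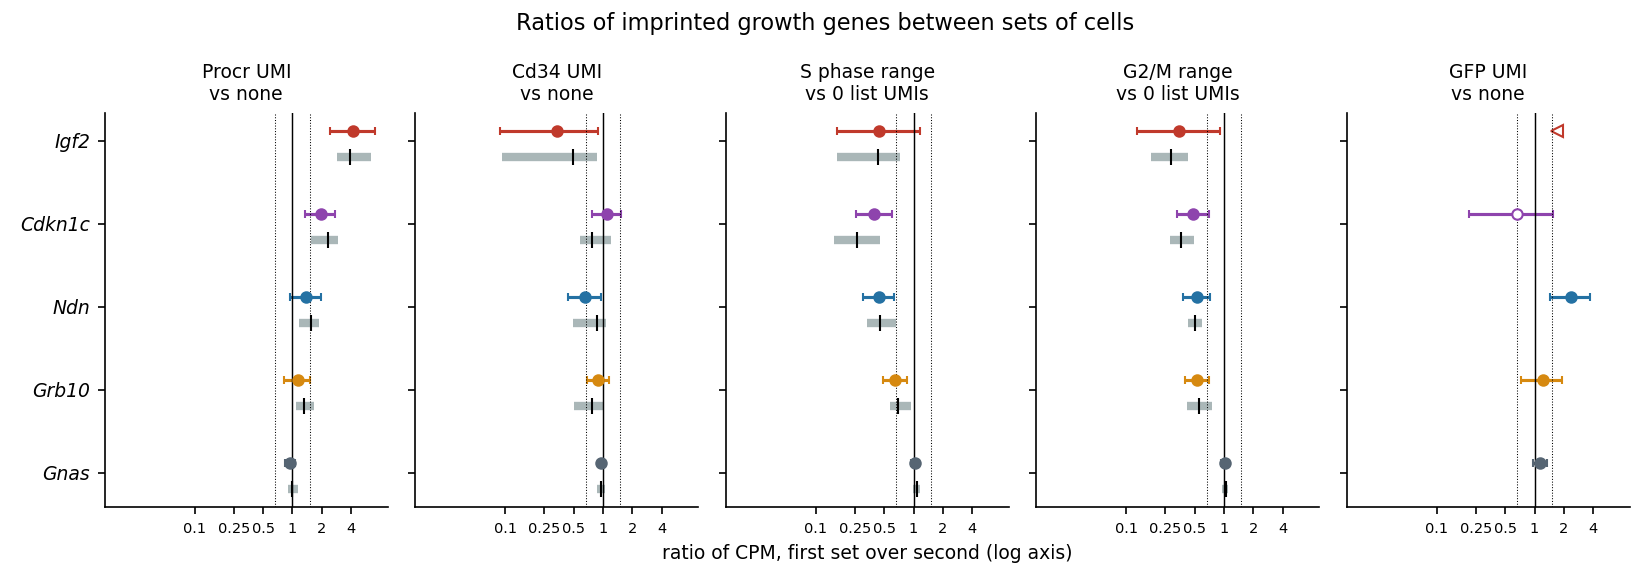
Ratio of CPM between the sets named above each panel (log axis) for 5 members; coloured points are the ratio with its exact interval (open where under 10 UMIs, a left arrow is an upper bound), grey bars the lowest to highest and black ticks the median of 20 other thinning draws, dotted lines 1.5 and its inverse. Igf2 and Cdkn1c lie to the right with Procr, 4 members lie to the left in the S phase and G2/M ranges, and the pooled Gnas ratios run from 0.945 to 1.15.

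Cells rich in cell cycle transcripts held less Ndn, Cdkn1c, Grb10 and Igf2 than cells without any. The margin was smaller for Grb10 in the S phase range, described next, and less certain for Igf2. The S phase range held 625 cells with at least 3 UMIs of an S phase list and under 3 of a G2/M list (median depth 1460 UMIs), and the comparison was 487 cells with none of either list (1202 UMIs). Ndn gave 41.2 against 126 CPM in aliquot 1 and 51.4 against 104.5 CPM in aliquot 2. The ratio was 0.438 (0.305 to 0.627), with 0.334 to 0.669 in the other draws. Cdkn1c gave 38.4 against 103 CPM in aliquot 1 and 32.6 against 81.3 CPM in aliquot 2, a ratio of 0.397 (0.259 to 0.601), and the other draws put it lower, at 0.155 to 0.457 with a median of 0.264.

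Igf2 was on the same side at 8.24 against 17.2 CPM and 7.53 against 17.4 CPM, but with 9 and 12 UMIs its ratio of 0.446 had an interval of 0.166 to 1.15 (other draws 0.164 to 0.732). Grb10 was 90.6 against 178 CPM and 91.6 against 128 CPM, a ratio of 0.650 (0.489 to 0.865) that passed the fold in 6 of 20 other draws (0.571 to 0.937, median 0.692). Gnas was on different sides in the aliquots, at 1139 against 902 CPM in aliquot 1 (ratio 1.26, 1.05 to 1.53) and 962 against 1016 CPM in aliquot 2 (0.947). Over both it was 1.03 (0.937 to 1.13; other draws 0.977 to 1.17). Of 5 measured members 0 were past the fold upward and 4 downward, where 14.9% and 19% of 8917 features were. Igf2 was measured through its 12 UMIs in the comparison cells, where under 10 were expected, so it could be counted only as lower. Over the other draws 2 to 4 members were downward, with a median of 3. The median log2 ratio of the members was -1.16, against -0.06 for all measured features. Without aliquot 1 the number downward was 2 of 4.

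Cells in the G2/M range, with at least 3 UMIs of that list (714 cells, median depth 1753.5 UMIs), gave a like picture. Ndn stood at 71.9 against 126 CPM in aliquot 1 and 52.3 against 104.5 CPM in aliquot 2, a ratio of 0.527 (0.382 to 0.727; other draws 0.431 to 0.596). Cdkn1c stood at 37.1 against 103 CPM and 43.7 against 81.3 CPM, a ratio of 0.481 (0.332 to 0.698; other draws 0.279 to 0.489, median 0.361). Grb10 was lower at 69.6 against 178 CPM and 75.1 against 128 CPM, with a ratio of 0.523 (0.394 to 0.695; other draws 0.417 to 0.748). Igf2 gave 0.349 (0.130 to 0.903; other draws 0.178 to 0.430) from 9 and 12 UMIs. Gnas was 1.02 (0.928 to 1.12; other draws 0.958 to 1.09), with 1.19 in aliquot 1 and 0.959 in aliquot 2.

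In this range 0 of 5 members were past the fold upward and 4 downward, against 15.6% and 19.4% of 8995 features, and 3 or 4 were downward in each of the other draws. Igf2 was again measured through its 12 UMIs in the comparison cells, where under 10 were expected, so it could be counted only as lower. The same 487 cells serve as comparison for both ranges, so the values are not independent. LT-HSC markers were 2541 CPM in the S phase range, 2468 CPM in the G2/M range and 4199 CPM in the comparison cells, and granulocyte markers were 1325, 5115 and 2257 CPM, and their part was not tested.

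Depth changed the values for Cdkn1c. Among the deeper cells of each aliquot, divided at the median depth, the Cdkn1c ratio was 1.92 in the S phase range and 2.05 in the G2/M range, each against 6 UMIs in the comparison cells. Over the 20 other draws the deeper cells gave a median of 0.511 (0.309 to 0.957) in the S phase range and 0.745 (0.497 to 1.102) in the G2/M range. The S phase ratio was above 1 in 0 of them and the G2/M ratio in 3. Both values of the main draw thus lay above all of the other draws. Among the shallower cells the medians were 0.202 and 0.252. Ndn was the reverse, with medians of 0.419 and 0.471 in the deeper cells and 0.653 and 0.880 in the shallower. Igf2 in the shallower cells had a median of 1.06 in the S phase range, from very few UMIs.

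Cells were also ordered into 4 classes of rising list content. From 0 through 1 to 2 and 3 to 5 to at least 6 list UMIs, Ndn gave 110.0, 72.7, 62.1 and 46.6 CPM, and Cdkn1c 86.9, 72.2, 37.3 and 38.3 CPM. Igf2 gave 17.4, 26.9, 9.67 and 7.77 CPM, so its highest class was not the first, and the medians over the other draws were 25.5, 22.2, 15.7 and 5.48 CPM. Grb10 held 140.4 and 142 CPM in the first classes and 106 and 78.3 CPM in the last. Gnas stayed between 974 and 1018 CPM. Median depth rose along the same classes from 1202 to 1731 UMIs. Of the other CDK inhibitors of this family, Cdkn1b (p27) gave 88.3, 103, 84.2 and 55.6 CPM, and Cdkn1a (p21) was at 4.34 to 11.1 CPM throughout.

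**Figure D4:**
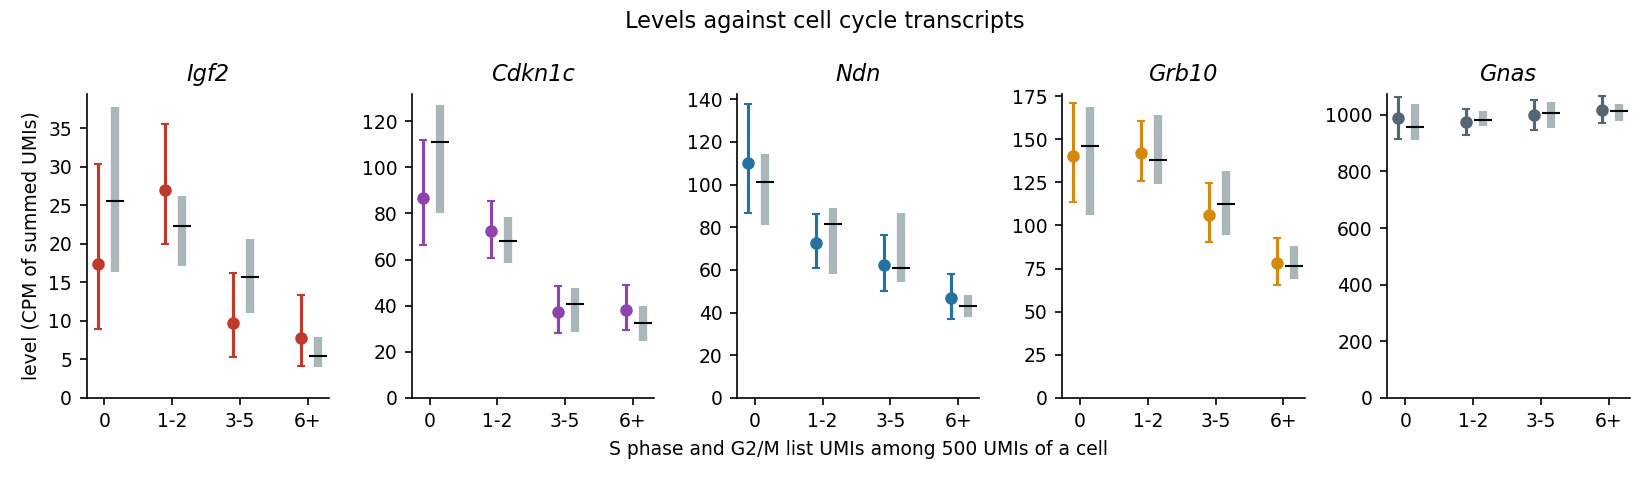
Level (CPM of summed UMIs) of 5 members in cells with 0, 1 to 2, 3 to 5 and 6 or more S phase and G2/M list UMIs among 500; coloured points with exact Poisson intervals, grey bars the range and black ticks the median of 20 other thinning draws. Ndn falls from 110.0 to 46.6 CPM and Cdkn1c from 86.9 to 38.3 CPM, while Gnas stays between 974 and 1018 CPM.

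Procr itself fell along these classes, from 239 to 54.4 CPM, so the Procr and cell cycle divisions share cells. Among cells in either range, Igf2 was 26.8 CPM with Procr and 6.22 CPM without, and over the other draws the medians were 58.9 and 7.14 CPM. Among cells with no list UMI it was 27.4 and 16.2 CPM, with medians of 48.4 and 23.0 CPM. Each Procr value of the main draw rests on 2 Igf2 UMIs, in 49 and 53 cells, and the intervals overlap. Gnas was lower with Procr among cells in either range, at 738 against 1018 CPM (ratio 0.725, 0.545 to 0.947), while the medians over the other draws were 938 and 1016 CPM. Among cells with Procr, Gnas was also lower in the S phase range than in cells without list UMIs, at 0.556 (0.316 to 0.934) from 19 and 69 UMIs. Cdkn1c gave 53.7 against 38.1 CPM and 96.1 against 85.8 CPM, and Ndn 67.1 against 53.3 CPM and 124 against 108 CPM, all within overlapping intervals.

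Reporter cells, with at least 1 GFP UMI, numbered 71, of which 23 were in aliquot 1 and 48 in aliquot 2 (median depth 1702 UMIs against 1412 in 3331 others). The sort, the mouse line and the cassette go together in this division and cannot be told apart, and a cell without a GFP UMI may still come from the GFP sort. Ndn was found in 6 of 23 reporter cells and 94 of 1551 other cells in aliquot 1, and in 8 of 48 and 158 of 1780 in aliquot 2. Its level was 298 against 69.3 CPM and 123 against 62.9 CPM. The ratio was 2.37 (1.45 to 3.68), from 21 UMIs, and 2.08 without the cell that held most.

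Grb10 was in 15 reporter cells, at a ratio of 1.22 (0.732 to 1.93) and on different sides in the aliquots (0.678 and 1.38). Gnas was at 1.15 (0.973 to 1.35). With at least 2 GFP UMIs required, Gnas was at 1.492 (1.206 to 1.825) from 96 UMIs, and without shared barcode names at 1.045 (0.8745 to 1.24). Cdkn1c had 5 UMIs where 7.54 were expected. Igf2 was in 0 of 71 reporter cells, which allows a share of up to 4.23% or a level of up to 21.9 CPM by 3 counts, and 2.15 UMIs were expected, so a difference was not detectable at this depth. Of 3 measured members 1 was past the fold upward and 0 downward, against 18.1% and 11.2% of 3428 features. The 1 was Ndn, which was measured through its 21 counted UMIs, since under 10 were expected. It could therefore be counted only above its expected number, so this count is a description. Granulocyte markers were 248 CPM in reporter cells and 2407 CPM in the others, megakaryocyte markers 533 and 369 CPM, and erythroid markers 1095 and 1688 CPM, and their part was not tested. Without aliquot 2 only 1 member could be measured and 0 passed, because Ndn was then under the minimum of UMIs.

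Members were also compared for how often they met in 1 cell. Because deep cells show more of every gene, the expected number was computed within 10 depth bins of each aliquot. Of 28 pairs with a row for both genes, 10 had at least 10 observed or expected cells, and 1 reached 1.5 times the expected number. Igf2 and Cdkn1c, the neighbours on chromosome 7, met in 14 cells where 4.76 were expected, a ratio of 2.94 (1.61 to 4.93). With under 10 expected cells, this pair passed the minimum through its observed cells, so it could be counted only when high. For all features with enough cells, 9.25% of 2141 reached that ratio with Igf2 and 5.82% of 6118 with Cdkn1c. The pair met in 6 cells against 1.47 in aliquot 1 and in 8 against 3.29 in aliquot 2, under the minimum of 10 in each, and in 5 against 0.749 after thinning.

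The other pairs lay near their expected numbers. Cdkn1c and Ndn met in 22 cells against 17.2, Grb10 and Ndn in 42 against 37.5, Cdkn1c and Grb10 in 28 against 28.8, and Igf2 and Grb10 in 13 against 9.98, and each interval holds 1. With Grb10 2.46% of 9047 features reached the ratio, with Ndn 5% of 7326, and with Gnas 0 of 12560. Without Gnas, 11 cells held 3 members against 5.45 expected, and 2504 held none against 2478.

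**Figure D5:**
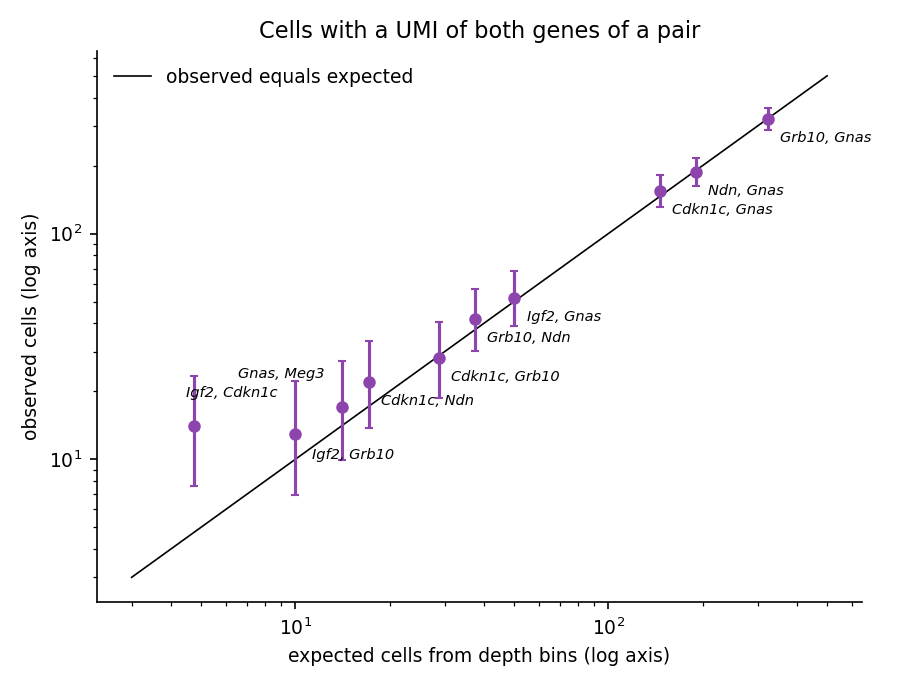
Observed against expected number of cells (log axes) with a UMI of both genes, for the 10 pairs with at least 10 cells; bars are exact Poisson intervals and the line marks equal numbers. Igf2 with Cdkn1c lies above the line, at 14 against 4.76, and the intervals of the other pairs reach the line.

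The LT-HSC markers were found with some members more often than depth gives. All 14 measured markers were above their expected number with Cdkn1c, and 5 of them reached 1.5 times it, where 5.82% of all 6118 features did: Procr (61 cells against 35.3), Mecom (54 against 32.6), Fgd5 (17 against 7.07), Mllt3 (72 against 43.5) and Ctnnal1 (17 against 10.7). With Igf2, 8 of 10 were above and 4 reached 1.5 times, where 9.25% of all 2141 features did, led by Procr (31 against 12.7) and Mllt3 (32 against 15.5). Some markers had under 10 expected cells and were measured only because they were met often. These were Fgd5 and Tek (13 against 9.12) with Cdkn1c, and Vwf (10 against 5.75) with Igf2. Hoxb5 with Grb10 and Fgd5 with Ndn entered in the same way. Igf2 and Cd34 met in 11 cells where 19.8 were expected. The numbers with Procr and Cd34 repeat the divisions above in the same cells, for which the members were listed. They are descriptions, and so are the marker counts and medians that include Procr. Markers above their expected number were as common with Grb10 (13 of 16), Ndn (11 of 14) and Gnas (12 of 16), so the number above is not particular to Igf2. The median ratio over these markers was 1.41 for Cdkn1c, 1.34 for Igf2, 1.13 for Ndn, 1.11 for Grb10 and 1.01 for Gnas, against 1.00 to 1.03 over all genes measured with each member. Gnas was present in most cells, which limits its ratios, so its median does not compare directly with the others.

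Among genes with at least 20 expected cells, those met most often with Cdkn1c were AI837181 (1.75 times expected), Procr (1.73) and Use1 (1.71), out of 2763 ranked. For Grb10 they were Cpd (1.60), Chchd10 (1.58) and Tek (1.55) of 6078, for Ndn Jagn1 (1.71), Sult1a1 (1.69) and Ei24 (1.67) of 3841, and for Gnas Chil5 (1.301), Tmem38a (1.28) and Nek8 (1.26) of 10943. Of the genes ranked, 0.724% reached 1.5 with Cdkn1c, 0.0823% with Grb10, 0.469% with Ndn and 0% with Gnas. Ratios with Gnas were limited by its presence in most cells, and Chil5 met it in 29 of 31 cells. All of these genes were measured in the same libraries and cells, and as the highest ratios of many they are descriptions only. Igf2 was found in too few cells to be ranked.

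The IGF pathway was read from a list of 23 genes. In the Procr division 13 could be measured, with 4 past the fold upward, 0 downward and a median log2 ratio of 0.12, where 12.7% of all features were upward and 13.1% downward. Igf2r, the imprinted receptor that clears IGF2, gave 2.50 (1.66 to 3.65; aliquots 2.34 and 2.57), and Igf1r, the signalling receptor, 1.57 (0.985 to 2.40). Igf2bp2, an RNA-binding protein of IGF2 mRNA, gave 2.79 (1.56 to 4.73). Igf2bp2 was measured through its counted UMIs, since under 10 were expected, so it could be counted only when high. The same holds for any other gene of this list with under 10 expected. The number upward was therefore partly set by the minimum. Igf1r and Igf2bp2 were chosen after their values were seen. Akt1, a kinase of the pathway, was at 1.03, and Igfbp4, an IGF-binding protein, at 0.821. In the S phase range 4 of 12 were downward and 1 upward (all features 19% and 14.9%), with Igf2r at 0.2198, Pik3r1, the PI3 kinase regulatory subunit, at 0.386 and Igfbp4 at 1.82. In the G2/M range 3 of 12 were downward and 0 upward (all features 19.4% and 15.6%), with Pik3r1 at 0.463.

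Other imprinted genes did not share one direction. Of 22 measured in the Procr division, 3 were upward and 6 downward, with a median log2 ratio of 0.01, beside 12.7% and 13.1% of all features. Zrsr1, a splicing factor gene, gave 2.25 (1.38 to 3.50), while Slc22a3, an organic cation transporter gene, gave 0.210 (0.108 to 0.370). In the S phase range 3 of 28 were upward and 7 downward, beside 14.9% and 19% of all features, and in the G2/M range 4 and 9 of 28, beside 15.6% and 19.4%. Slc22a3 was at 2.72 and 2.24 there and Gatm, a creatine synthesis gene, at 2.19 and 1.82, whereas Zrsr1 was at 0.403 and 0.481. Cd81 and H13, with 2612 and 1537 UMIs, were at 1.37 and 1.45 in the Procr division, and Ube3a, Nap1l4 and Casd1 were at 0.822, 0.967 and 1.11.

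A list of 23 imprint regulators, not all of which maintain imprints, was counted in the same way. With Procr, 1 of 18 was upward and 4 were downward, beside 12.7% and 13.1% of all features. The 1 upward had under 10 expected UMIs, so it could be counted only when high. In the G2/M range 6 of 17 measured regulators were upward and 4 downward, beside 15.6% and 19.4%, and in the S phase range 6 and 3 of 17, beside 14.9% and 19%. Dnmt1, the maintenance DNA methyltransferase, was at 4.14 in the S phase range, 4.50 in the G2/M range and 0.514 with Procr. The cohesin genes Rad21 and Smc3 were at 2.35 and 2.07 in the G2/M range. Trim28, the corepressor that guards imprints, was at 1.48 and 1.43 in the S phase and G2/M ranges. In reporter cells 2 of 11 other imprinted genes were upward and 3 downward, beside 18.1% and 11.2% of all features, and Dlk1, chosen after its values were seen, had 10 UMIs in 4 cells, of which 6 lay in 1 cell. Dlk1 was measured through these 10 UMIs, since under 10 were expected, so it could be counted only when high. Any other gene of this count with under 10 expected entered only above its expected number.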

How the data were processed

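What the authors deposited are UMI counts (unnormalized, whole numbers) for each gene in each barcode. Build GRCm38 and the tools RSEM 1.3.0, Bowtie 1.1.1 and SAMtools 1.3.1 are named in the submitters' processing notes; their roles and settings are not given in the sources used here. Reporter transcripts form a feature named GFP, which per the labels was matched to the cassette, and were left out of totals. The members and lists were chosen with earlier results of these data known.

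Kept barcodes had 500 UMIs or more and no more than 20% mitochondrial UMIs (3402 of 10809; 5668067 of 6528388 UMIs). Cells were thinned without replacement to 500 UMIs, with 1 random seed for each barcode. This draw replaced an earlier one, made from 1 random stream, after the results of the earlier draw had been seen, because there a change of filter also changed the draw of later cells; its values are given with the alternatives. Summed counts were scaled to CPM with exact Poisson intervals, ratios have exact conditional binomial intervals and shares exact Clopper-Pearson intervals, at 95%. Intervals cover counting error only. With 1 pool no test was made. The division script was checked on simulated counts. Doublets were kept; Scrublet (scanpy 1.11.5, expected rate 6%) marked 0.572% and 0.875% of cells.

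Named genes were the members, the 6 other imprinted genes with most UMIs and those with at least 50 UMIs past 1.5-fold alike in the pool and each aliquot, the 4 IGF pathway and 4 regulator genes with most UMIs, and the 3 most co-detected genes of each member in at least 100 cells. Igf1r, Igf2bp2 and Dlk1 were named outside this rule. The ratios of Grb2, an IGF pathway gene within it at 1249 UMIs, are not given here. Gene positions are from GENCODE vM21. Alternatives covered cell filters, draws, depth, doublets, aliquots and the minimum of UMIs. Python 3.11.15, numpy 2.4.6 and scipy 1.17.1 were used.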

Additional observations from a re-analysis of the deposited data

Results flagged for a closer look

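Barcodes left out of the cells also held transcripts of these genes, which no comparison used. They carried 703 UMIs of Gnas, 77 of Grb10, 55 of Ndn, 41 of Cdkn1c, 13 of Igf2 and 4 of Meg3, each above the 3 counts that a count of 0 allows. Other grounds for a closer look need at least 4 samples in a group, and there were 2 aliquots of 1 pool.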

How the results depend on the processing

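No paired analysis was possible because the 2 aliquots belong to 1 group. Of the counts of members past the fold and of pairs, 162 values under alternatives stayed within 1.5 times the reported count and 36 did not; of single-member ratios 373 stayed within the counting interval, 32 moved outside it and 2 reversed. The reversals were Cdkn1c in the deeper cells of the main draw, at 1.92 (S phase) and 2.05 (G2/M). The 20 other draws reached at most 0.957 and 1.102 there, with 0 and 3 of them above 1, so reversals of this size were seen in the main draw only. The cause was not tested.

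The draw used first gave 3 members higher with Procr, 0 lower with Cd34, 3 lower in the S phase range and 4 in the G2/M range, with Cdkn1c at 0.212 and 0.298 in those ranges, Ndn at 0.373 in G2/M and Grb10 at 0.895 in the S phase range.

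Members higher with Procr (2 reported) were 1 with levels from thinned counts, 1 in the shallower cells, 0 in cells with 0 list UMIs (2 measured) and 0 in cycling cells (1 measured), and 1 to 2 leaving out an aliquot. Members lower with Cd34 (2) were 1 at 1000 UMIs or more, 1 when 20 UMIs were required, 4 when 1 was, 1 in shallower and 0 in deeper cells, 1 without shared barcode names, 0 in draws 2 and 4, and 0 to 1 leaving out an aliquot. Members lower in the S phase range (4) were 7 when 1 UMI was required, 2 in shallower and 1 in deeper cells (where 1 was higher), 2 on all UMIs, 2 with 2 list UMIs, 1 in cells with Procr (Gnas, at 0.556, the 1 measured), and 2 to 3 leaving out an aliquot. Members lower in the G2/M range (4) were 2 in shallower, 2 in deeper cells (1 higher), 2 on all UMIs and 0 in cells with Procr (1 measured). In reporter cells, 3 were higher and 2 lower when 1 UMI was required, 0 higher in shallower cells, and 0 to 1 leaving out an aliquot. Pairs past 1.5 were 0 when thinned to 500 UMIs and 0 without either aliquot.

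Depth limits all members but Gnas and Grb10: Peg3, Plagl1 and Meg3 could not be compared, and ratios of Igf2 rest on 4 to 20 UMIs in the smaller set.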
